A study of Arabidopsis thaliana with 10 samples.

Results

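WRKY factors are plant transcription factors that bind W-box elements in promoters through a conserved domain holding the WRKY peptide and a zinc finger. Many of their genes are switched on within minutes of wounding or pathogen attack, several act downstream of MAP kinase cascades, and members of the family both promote and repress salicylate and jasmonate responses. Here the family was represented by every probe set of the Affymetrix ATH1 array whose deposited description contains the word WRKY, 35 of 22746 non-control probe sets. The treatments differed for this set. At 30 min and 60 min after wounding, the 10 and 11 of 26 tested WRKY probe sets that passed all rose. Of all tested probe sets 9.63% and 12.1% rose at these times. After methyl jasmonate (MeJA) the calls went both ways, with 3 up and 6 down at 1 h and 5 up and 7 down at 4 h. The shares of all tested probe sets were 15.7% up and 15.8% down at 1 h, and 18.8% and 18.7% at 4 h.

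The arrays measured *Arabidopsis thaliana* at an age of 21 days in wild-type Col-0 and in Ri17, 1 transgenic line of the Col-0 cultivar in which RNA interference targets *JAV1*. JAV1 is a VQ motif protein that represses jasmonate defence, and VQ proteins as a class bind WRKY factors. Each genotype was left untreated, exposed to 100 µM MeJA for 1 h or 4 h, or wounded by crushing 4 rosette leaves with forceps, with about 30% of each leaf damaged, and sampled after 30 min or 60 min. Every one of these 10 groups had 1 array, and the untreated pair served as the control for both MeJA and wounding. The label of every sample names leaves as the tissue, while the growth notes describe seedlings in MS medium, and no mock treatment for the MeJA medium is among the samples. No probe set was named as *JAV1* here, so the lowering of its transcript was not checked.

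Median signal ran from 121.5 to 133.4 across arrays, and 56.8% to 60.9% of probe sets had a Present call, the scanner software's statement that a transcript was detected. Before taking log2, signals under 37.7 were raised to that floor, which is the 75th percentile among signals with an Absent call. A difference whose low side lay at the floor, or had no Present call, is given as "at least". The signals of *RCA*, the leaf gene of rubisco activase, ran from 17633.5 to 36668.5 and were Present on all arrays. It was 1 of 7 fixed leaf markers with a named probe set.

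Of the 35 WRKY probe sets, 26 were called Present on at least 2 of the 10 arrays and were tested. The other 9 were never called Present, with signals between 0.9 and 62.2. Among the 26, 10 were Present on every array and 18 on both untreated arrays. A set of 4 was Present on neither untreated array (245976_at, 259320_at, 260278_at and 266052_at), and the last 3 of these had Present calls on wounded arrays alone, through which they entered the test. The descriptions name a homologue in parsley for 7 of the 35 probe sets (6 tested), in tobacco for 6 (4 tested), in potato for 2 (1 tested), in oat for 1 and in rice for 1, the last 2 both tested. The remaining 18 name none of these species (13 tested). A wording with "putative WRKY-type" recurs in 13 descriptions. Only 251715_at, which was never Present, had a gene in the annotation table (AT3G56390), so the members are called here by probe set and description, and a function known for a particular WRKY gene cannot be assigned to them.

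At 30 min after wounding, 10 of the 26 WRKY probe sets rose and 0 fell (limma, Benjamini-Hochberg adjusted p under 0.05). Among all 15382 probe sets tested, 20.1% were called in this comparison, 9.63% higher and 10.5% lower. The median difference of the WRKY probe sets was 0.41 on the log2 scale, against -0.08 over all probe sets. All p-values here come from a model with genotype and condition as additive terms, so their spread mixes array noise with any difference between Col-0 and Ri17 in the response. In these bulk samples, fewer cells of a type and less RNA per cell cannot be told apart. Without the 3 probe sets that were Present on wounded arrays alone, 10 of the other 23 rose at 30 min and 10 at 60 min.

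Probe set 261892_at, described as similar to a tobacco WRKY factor, had the largest rise. Its signal in Col-0 was 319.1 untreated, 7987.0 at 30 min and 5984.4 at 60 min. In Ri17 the corresponding signals were 181.2, 10268.8 and 8776.1. Both wounded arrays of each genotype were therefore far above every untreated and MeJA array of this probe set, and the difference was 5.24 ± 0.33 (log2 ± standard error, adjusted p = 1.22e-04) at 30 min and 4.91 ± 0.33 (adjusted p = 1.02e-04) at 60 min.

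Probe set 267028_at, one of those described only as a putative WRKY-type protein, went from 450.4 to 5176.5 at 30 min and 2090.1 at 60 min in Col-0. In Ri17 it went from 255.4 to 5480.9 and 3288.9. The rise was 3.97 ± 0.36 at 30 min (adjusted p = 4.83e-04) and 2.95 ± 0.36 at 60 min (adjusted p = 1.13e-03), and the signal was lower at 60 min than at 30 min in both genotypes. The test between the times was not passed (-1.02 ± 0.36, adjusted p = 0.16). Probe set 253535_at, whose description cites parsley WRKY3, read 461.7 untreated, 2782.9 at 30 min and 1138.7 at 60 min in Col-0, and 307.9, 2344.9 and 1918.4 in Ri17. It too read higher at 30 min than at 60 min in each genotype, again without passing the test between times, with rises of 2.76 ± 0.32 and 1.97 ± 0.32 over the untreated arrays.

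Probe set 248611_at rose by 2.25 ± 0.24 at 30 min and 2.46 ± 0.24 at 60 min. Its Col-0 signals were 353.3, 1392.1 and 1441.8 for untreated, 30 min and 60 min, and those of Ri17 were 260.5, 1494.2 and 1930.6. Probe set 245051_at rose by 2.14 ± 0.29 and 1.85 ± 0.29, from 556.9 to 2015.1 and 1502.5 in Col-0 and from 526.3 to 2837.8 and 2523.3 in Ri17. In both probe sets, picked here by their rise, the untreated and wounded signals did not overlap. The share of all probe sets without such overlap was not counted. Of the 10 calls at 30 min, 6 were kept when any single array was left out: these 5 and 254652_at. The calls for 251553_at (0.95), 260882_at (0.82), 263783_at (1.66) and 267246_at (1.30) were not. Leaving out single arrays ended the call for 251553_at in 3 cases (the untreated Col-0 array and both 30 min arrays, lowest 0.69) and for 263783_at in 3 (the untreated Ri17 array and both 30 min arrays, lowest 1.34). It did so for 260882_at in 5 cases, lowest 0.61 without the Col-0 array at 30 min, and for 267246_at in 7, lowest 0.71 without the untreated Ri17 array. Fitted on wounded and untreated arrays alone, the count was 6.

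**Figure D1:**
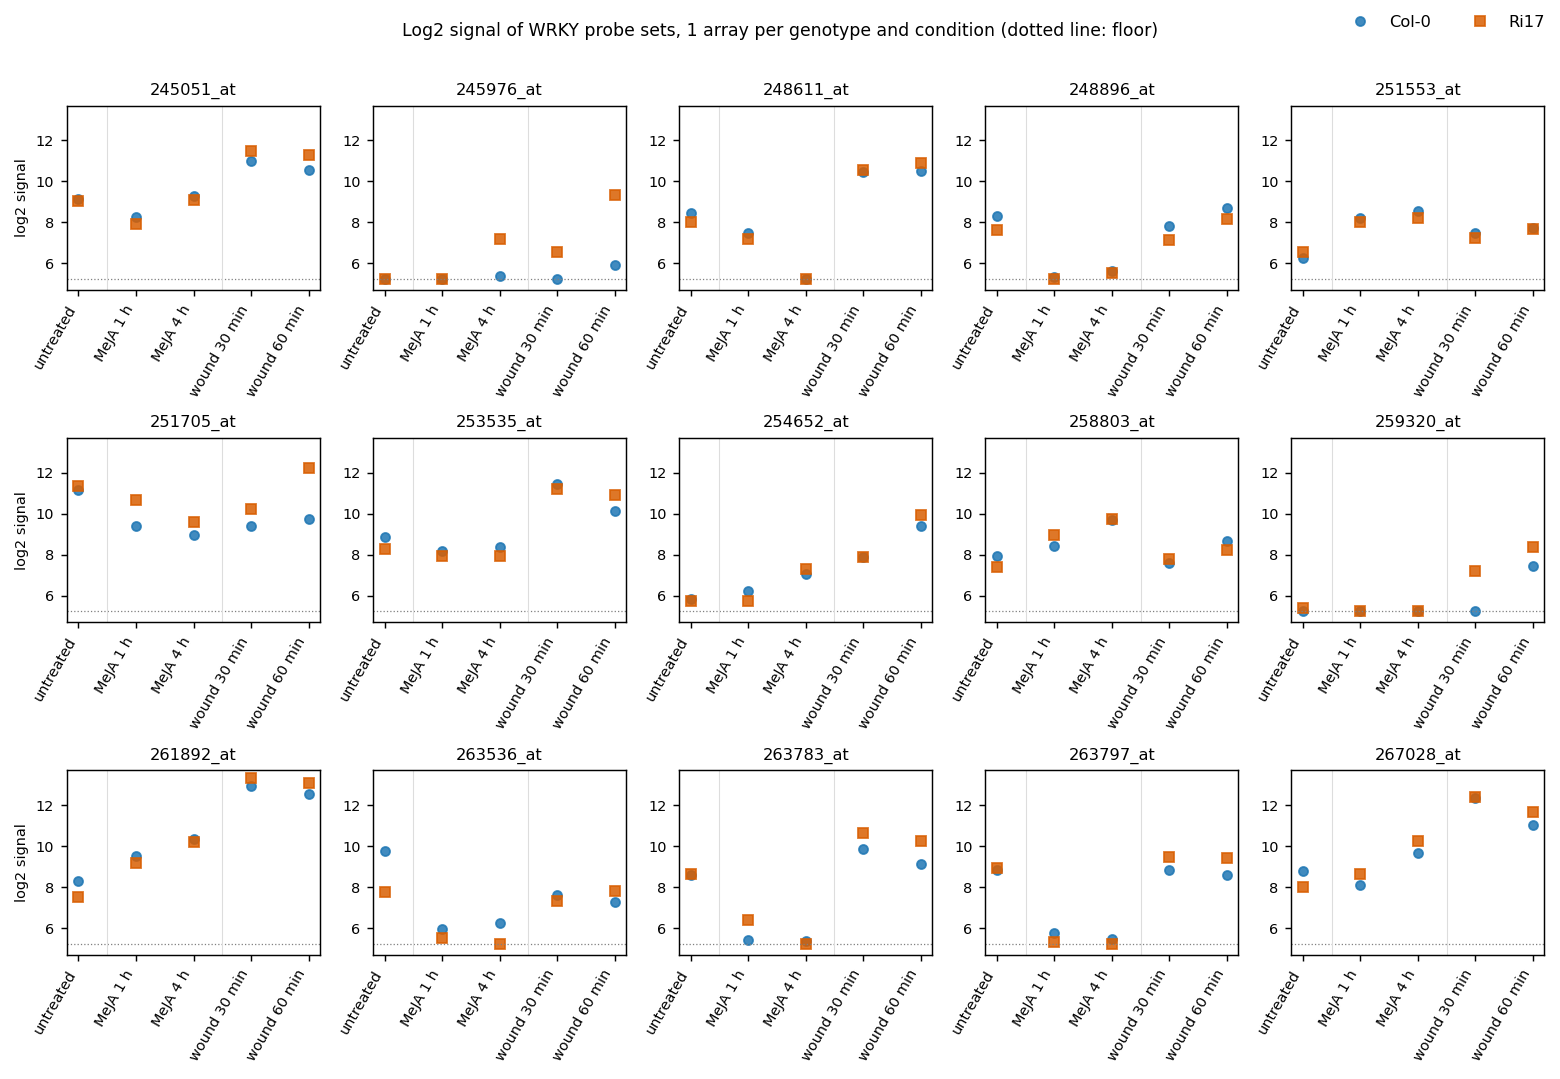
Log2 signal (vertical axis) on each of the 10 arrays for the WRKY probe sets named first by size of treatment difference, with 251705_at and 245976_at added, by condition (horizontal axis); circles are Col-0, squares Ri17, each 1 array, and the dotted line is the floor. The wounded arrays of 261892_at, 267028_at, 253535_at and 245051_at lie above the untreated and MeJA arrays, and those of 263797_at lie near the untreated arrays while the MeJA arrays lie near the floor.

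At 60 min after wounding 11 of the 26 rose and 0 fell, where 28.2% of all probe sets were called, 12.1% higher and 16.1% lower. The median difference was 0.89 for the WRKY probe sets and -0.14 over all probe sets, so that each rise stands against an array-wide value slightly under 0. The 15 that did not pass lay between -1.23 and 2.40. Probe set 254652_at, described as like the sweet potato factor SPF1 and the parsley WRKY family, read 57.4 untreated, 240.3 at 30 min and 673.1 at 60 min in Col-0, and 53.5, 239.9 and 980.0 in Ri17. Its signal stood higher at the later time in both genotypes, and it rose by 2.12 ± 0.26 at 30 min and 3.87 ± 0.26 at 60 min (adjusted p = 9.45e-05). Probe set 259320_at, described as similar to tobacco NtWRKY1, had no Present call on untreated, MeJA or 30 min arrays and signals of 177.1 in Col-0 and 336.0 in Ri17 at 60 min. It rose by at least 2.62 ± 0.48 (adjusted p = 6.62e-03). That call was lost without the untreated Ri17 array (2.33) or the Ri17 array at 60 min.

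The rest of the 11 at 60 min were 267246_at (2.07 ± 0.37), 260528_at (1.85 ± 0.21), 251553_at (1.29 ± 0.21) and 260882_at (1.01 ± 0.20). Of the 11 calls, 9 were kept without any single array. The exceptions were 259320_at and 260882_at, which measured 0.93 without the Col-0 array at 60 min (adjusted p = 0.0503). Between 30 min and 60 min, 2 WRKY probe sets rose and 0 fell, against 2.67% and 1.72% of all probe sets (4.39% together). They were 254652_at (1.76 ± 0.26, adjusted p = 0.0197) and 260528_at (1.39 ± 0.21, adjusted p = 0.0227), the latter with 64.9 and 178.1 in Col-0 and 103.6 and 260.5 in Ri17. Leaving out 1 array ended the first call in 5 cases (lowest 1.44, with the Ri17 array at 60 min left out) and the second in 6 (lowest 1.28, with the Col-0 array at 30 min left out). On wounded and untreated arrays alone the count was 0.

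After 1 h of MeJA, 3 of the 26 WRKY probe sets rose and 6 fell, where 31.5% of all probe sets were called, 15.7% higher and 15.8% lower. Their median was -0.31, against 0.01 over all. Probe set 263797_at, a putative WRKY-type protein, read 462.9 untreated, 53.9 at 1 h and 44.5 at 4 h in Col-0, and 495.3, 40.6 and 30.5 in Ri17. None of its 4 MeJA arrays was called Present, and it fell by at least 3.36 ± 0.33 at 1 h (adjusted p = 5.00e-04) and at least 3.55 ± 0.33 at 4 h (adjusted p = 3.05e-04). The same probe set read 453.9 and 389.3 on the Col-0 wounded arrays, under its untreated signal, and 718.0 and 697.3 on those of Ri17, above it.

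Probe set 263783_at, of the same description, read 385.9, 43.7 and 41.2 in Col-0 for untreated, 1 h and 4 h, and 398.3, 83.3 and 36.3 in Ri17. It fell by 2.70 ± 0.34 at 1 h and at least 3.31 ± 0.34 at 4 h, while 30 min after wounding it read 944.5 and 1630.3, above both untreated arrays. Probe set 248896_at fell by at least 2.69 ± 0.23 at 1 h and 2.39 ± 0.23 at 4 h, from 320.2 to 40.2 and 49.7 in Col-0 and from 196.4 to 37.1 and 45.9 in Ri17. Probe set 263536_at fell by at least 3.04 ± 0.53 and 3.02 ± 0.53. Its untreated signals were far apart, 885.2 in Col-0 and 214.7 in Ri17, and its MeJA signals lay between 28.0 and 76.7. The groups of all 4 probe sets, picked here by their fall, did not overlap between untreated and MeJA arrays. The share of all probe sets without such overlap was not counted.

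The smaller falls at 1 h were those of 245051_at (-0.97 ± 0.29, adjusted p = 0.0425) and 248611_at (-0.92 ± 0.24, adjusted p = 0.0239). Both calls depended on single arrays. Leaving out 1 array ended that for 245051_at in 8 cases (-0.68 with the Ri17 array at 1 h left out), and that for 248611_at in 3, namely the untreated Col-0 array (-0.67) and both arrays at 1 h. By 4 h, 248611_at read 35.4 in Col-0 and 25.7 in Ri17, under the floor in both, a fall of at least 3.01 ± 0.24 (adjusted p = 1.58e-04), whereas 245051_at read 622.2 and 540.4, close to its untreated signals.

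The rises under MeJA were fewer. Probe set 251553_at, described as like the *Arabidopsis* protein AR411, read 76.9 untreated, 300.7 at 1 h and 381.5 at 4 h in Col-0, and 94.9, 262.3 and 299.7 in Ri17. It rose by 1.72 ± 0.21 at 1 h and 1.98 ± 0.21 at 4 h, and by 0.95 and 1.29 at 30 min and 60 min after wounding, all against the same untreated arrays. Set directly against each other, 60 min after wounding and 1 h of MeJA differed by -0.42 ± 0.21 (adjusted p = 0.154), which did not pass. Probe set 258803_at read 245.7, 344.8 and 822.7 in Col-0 and 168.8, 507.7 and 848.8 in Ri17. It rose by 1.04 ± 0.29 at 1 h and 2.04 ± 0.29 at 4 h, and measured 0.04 at 30 min and 0.78 at 60 min after wounding, neither past the threshold. Probe set 261892_at rose by 1.45 ± 0.33 and 2.38 ± 0.33, with signals of 746.6 and 1321.1 in Col-0 and 577.3 and 1181.4 in Ri17. At 1 h the call for 258803_at ended in 6 of the fits that leave out 1 array (0.67 with the Ri17 array at 1 h left out). That for 261892_at ended in 3, with the untreated Ri17 array (0.99) or either array at 1 h left out.

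At 4 h of MeJA, 5 of the 26 rose and 7 fell, against 18.8% and 18.7% of all probe sets (37.5% together), with a median of -0.18 against 0.00. Besides those above, 267028_at (1.55 ± 0.36) and 254652_at (1.41 ± 0.26) rose, and 251705_at (-1.98 ± 0.49) and 254159_at (at least 1.42 ± 0.22 lower) fell. Of the 12 calls, 10 were kept without any single array. The call for 267028_at ended when the Ri17 array at 4 h was dropped (1.31), and that for 251705_at without the untreated Col-0 array (-1.41) or either array at 4 h.

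Between 1 h and 4 h of MeJA, 2 WRKY probe sets rose and 2 fell, against 6.69% and 7.93% of all (14.6% together). The falls were 248611_at (at least 2.09 ± 0.24 lower) and 254159_at (at least 1.51 ± 0.22 lower), and the rises were 267028_at (1.58 ± 0.36) and 254652_at (1.23 ± 0.26). With the arrays centred on their medians or quantile normalised, 4 rose and 2 fell. Each of the 4 calls was lost without 1 or more single arrays: 248611_at without the Col-0 array at 1 h (-1.94), 254159_at without any of 3 (both arrays at 1 h and the Ri17 array at 4 h, -1.26 without the last), 254652_at without any of the 4 MeJA arrays (0.89 without the Ri17 array at 1 h) and 267028_at without any of 6 (1.34 without the Ri17 array at 4 h).

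Other measures moved with MeJA. Of 7 fixed markers of root or other organs 3 had a named probe set, and their summed signal ran from 958.8 to 2506.1 on the 4 MeJA arrays, from 203.8 to 207.3 on the untreated arrays and from 78.8 to 295.9 on the wounded arrays. Nearly all of this was *PYK10*, a root beta-glucosidase gene, at 901.9 to 2457.9 on the MeJA arrays. *EXPA7*, a root hair expansin gene, was never Present, and *SHR*, a regulator of root patterning, was at least 1.20 and 1.06 lower under MeJA than untreated, and at least 1.55 and 1.38 lower at 30 min and 60 min after wounding. Of 27 poly-A control probe sets, 17 did not overlap between the 4 MeJA arrays and the 6 others, with a median 0.53 higher under MeJA. Of 18 hybridization control probe sets 6 did not, with a median of -0.38. The share of all probe sets without overlap in this split was not counted. The ratio of 3′ to 5′ *GAPDH* signal ran from 1.888 (Ri17 at 60 min after wounding) to 2.668 (Col-0 at 30 min after wounding). The MeJA arrays, at 2.036 to 2.446, lay inside that range, and the untreated arrays read 1.938 and 1.948. At 60 min after wounding the ratio was 2.398 in Col-0. The part of these measures in the WRKY differences under MeJA or between genotypes was not tested.

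**Figure D2:**
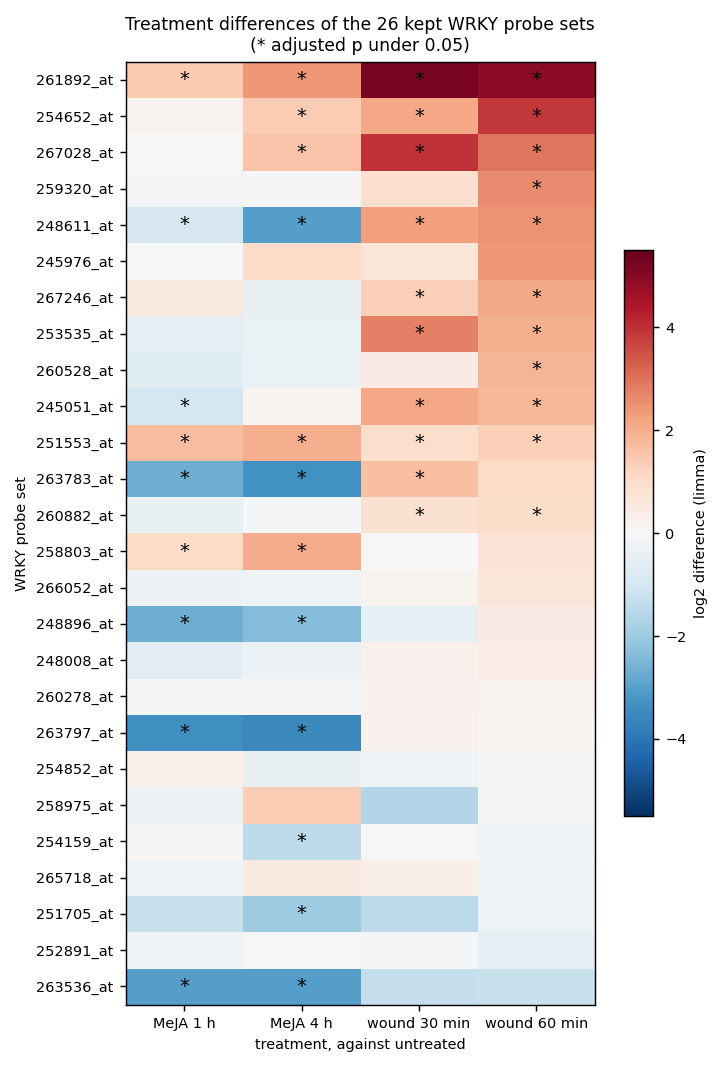
Log2 difference from the untreated arrays (colour, red higher and blue lower) for the 26 tested WRKY probe sets (rows, ordered by the value at 60 min after wounding) in the 4 treatments (columns); an asterisk marks an adjusted p under 0.05. The wound columns hold 10 and 11 asterisks, all on red cells, and the MeJA columns hold 9 and 12 in both colours.

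In a direct comparison of wounding at 60 min with MeJA at 1 h, the difference itself uses no untreated array. Its p-value does, because the spread was fitted on all 10 arrays. In this comparison 16 of the 26 WRKY probe sets were higher after wounding and 0 were lower. Of all probe sets 34.5% were called, 14.2% higher and 20.3% lower. The median difference was 1.70 for the WRKY probe sets, against -0.16 over all. The 16 include 259320_at, which was Present only on the 2 arrays at 60 min after wounding, through which it entered the test. Probe set 263783_at was 3.78 ± 0.34 higher (adjusted p = 4.43e-04) and read 557.4 and 1238.2 after wounding (Col-0, then Ri17) and 43.7 and 83.3 under MeJA. Probe set 254652_at was 3.69 ± 0.26 higher, with 673.1 and 980.0 after wounding and 74.9 and 53.0 under MeJA. With no Present call under MeJA, 263797_at was at least 3.48 ± 0.33 higher, a lower bound that gives it no rank among the 3. For these 3 probe sets both wounded arrays lay above both MeJA arrays by 2.85 or more within each genotype.

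Probe sets 263797_at and 248896_at (at least 3.15 ± 0.23 higher) reached this list without having passed the test between wounded and untreated arrays. They read 389.3 and 419.9 in Col-0 after wounding, against 462.9 and 320.2 untreated. In Ri17 both read higher after wounding, at 697.3 and 285.5 against 495.3 and 196.4 untreated. By contrast 261892_at (3.46 ± 0.33) and 267028_at (2.98 ± 0.36) had risen after wounding. Of the 16 calls, 11 were kept without any single array. The others were 245976_at (at least 2.40, ended in 9 of the 10 fits, 1.07 with the Ri17 array at 60 min dropped), 263536_at (at least 1.81, ended in 7, 1.07 with the same array dropped) and 267246_at (1.59, lost without that array, 1.09, or either MeJA array). The last ones were 248008_at (0.98, lost without any of the 4 arrays compared, 0.85 without the Col-0 MeJA array) and 259320_at (at least 2.69, lost without the Ri17 MeJA array, 2.31). The control and root marker values above differ between these arrays too. Time after treatment was matched at 1 h, but the seedlings treated with MeJA and the wounded leaves differ in how they were handled.

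**Figure D3:**
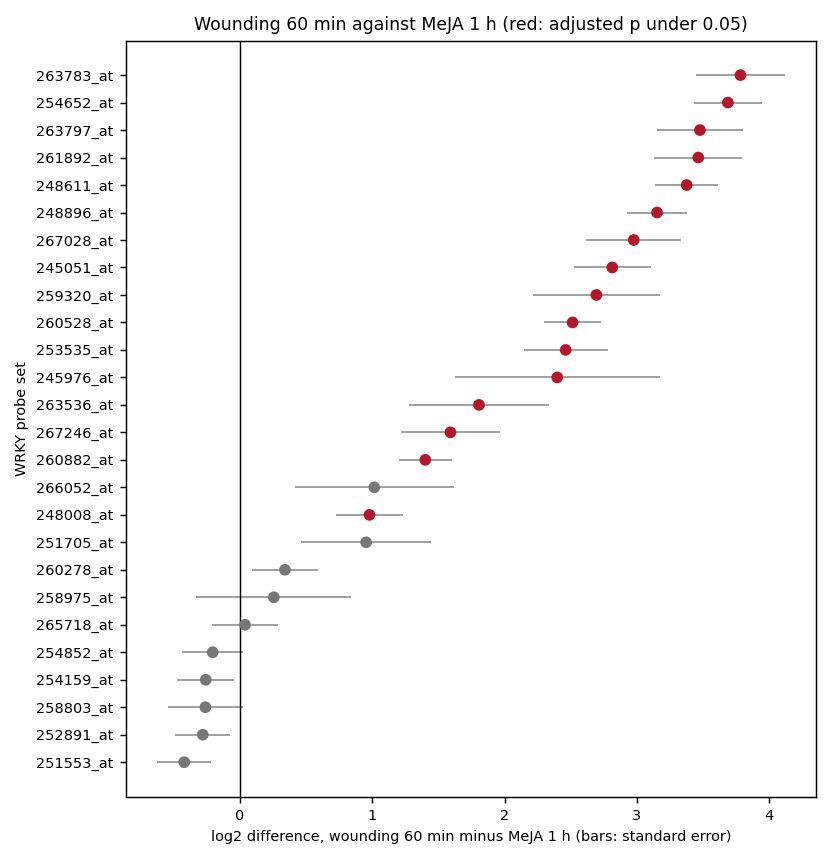
Log2 difference between 60 min after wounding and 1 h of MeJA (horizontal axis) for the 26 tested WRKY probe sets (vertical axis), with bars for the standard error from limma; red points have an adjusted p under 0.05. The 16 red points all lie above 0, with fitted values from 0.98 for 248008_at to 3.78 for 263783_at, and those with an undetected MeJA side are lower bounds.

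Over all conditions together, 0 of the 26 WRKY probe sets differed between Ri17 and Col-0 in limma after Benjamini-Hochberg adjustment, as did 0 of all 15382 (0%). At an unadjusted p under 0.05 there were 11 of the 26 (7 higher and 4 lower in Ri17), which is 42.3%, against 6.18% of all probe sets. The 2 with the largest fitted differences among these 11 were 245976_at (1.32 ± 0.49 on the log2 scale) and 251705_at (2.14-fold, with a log2 standard error of 0.31), each with an adjusted p of 0.80. The value for 245976_at includes floored signals in both genotypes. These were 26.8, 22.2 and 28.5 in Col-0 (untreated, 1 h of MeJA, 30 min after wounding), and 33.9 and 1.4 in Ri17 (untreated, 1 h of MeJA). Within a condition Ri17 and Col-0 are 1 array each, so the differences that follow carry no test. Counted are those of 1 or more (log2) whose brighter array was called Present.

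On the untreated arrays 0 WRKY probe sets were higher in Ri17 and 2 were lower, where 3.13% of all probe sets were higher and 2.43% lower. The 2 were 263536_at, at 885.2 in Col-0 and 214.7 in Ri17 (-2.04), and 258975_at, described as similar to parsley WRKY1, at 264.2 and 92.9 (-1.51). The authors' deposited table calls 9 of the 26 decreased and 0 increased. The share of all probe sets with such calls was not counted, here or in the other conditions. Next in size was 265718_at, at 200.9 and 101.2 (-0.99). The highest positive differences were those of 260528_at (48.2 and 74.1, 0.62), 254852_at (85.8 and 117.8, 0.46) and 260882_at (56.8 and 76.4, 0.43, the latter array not called Present).

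Under MeJA few differences were this large. At 1 h 1 was higher and 0 lower, against 0.8% and 0.345% of all probe sets, and at 4 h 1 was higher and 1 lower, against 0.904% and 0.8%. The probe set at 1 h was 251705_at, described as similar to tobacco WRKY4, with 668.8 in Col-0 and 1650.0 in Ri17 (1.30). Next above the floor were 263783_at (43.7 and 83.3, 0.93) and 254159_at (106.3 and 159.6, 0.59). On the other side at 1 h lay 254652_at (74.9 and 53.0, -0.50), 263536_at (62.1 and 45.5, -0.45) and 263797_at (53.9 and 40.6, -0.41), none of them Present in Ri17. At 4 h 245976_at, described as like a potato WRKY protein, read 41.2 and 148.0 (1.84), and 263536_at read 76.7 and 28.0, at least 1.02 lower. With both signals above the floor, 251705_at (508.3 and 784.9, 0.63) and 258975_at (338.1 and 512.3, 0.60) followed on the higher side. The lowest of that kind were 253535_at (334.8 and 249.1, -0.43), 252891_at (64.9 and 49.2, -0.40) and 251553_at (381.5 and 299.7, -0.35). The authors' deposited table calls 3 increased and 1 decreased at 1 h, and 5 and 1 at 4 h.

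At 30 min after wounding 2 were higher in Ri17 and 0 lower, against 2.27% and 2.23% of all, while the authors' deposited table calls 8 of the 26 increased and 1 decreased. Both had a Col-0 signal under the floor: 245976_at read 28.5 and 93.2 (at least 1.31 higher), and 266052_at, a putative WRKY-type protein, 11.5 and 96.1 (at least 1.35 higher). Probe set 266052_at was Present only on the Ri17 arrays at 30 min and 60 min after wounding, through which it entered the 26. The highest differences with both signals above the floor were those of 251705_at (672.1 and 1218.0, 0.86), 263783_at (944.5 and 1630.3, 0.79) and 260528_at (64.9 and 103.6, 0.67). The lowest of that kind were 258975_at (69.0 and 37.8, -0.87, Absent on both arrays), 248896_at (230.1 and 140.8, -0.71) and 252891_at (64.1 and 40.9, -0.65, Absent in Col-0). Probe set 259320_at read 16.7 and 149.8, but was not called Present on the Ri17 array.

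At 60 min the differences of 1 or more lay to one side, while smaller ones went both ways. In Ri17 6 were higher and 0 lower, against 4.54% and 3.29% of all. The 26 had a median of 0.60, and all probe sets one of -0.04. The medians in the other conditions were -0.13 untreated, 0.00 at 1 h and 0.01 at 4 h of MeJA, and 0.12 at 30 min after wounding. Probe set 245976_at read 60.4 in Col-0 and 653.6 in Ri17 (3.44), and 251705_at read 854.9 and 4836.8 (2.50). The 60 min value of 251705_at in Ri17 was the highest of its 10 arrays, whereas in Col-0 its wounded signals of 672.1 and 854.9 were under the untreated 2323.0.

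The other 4 were 266052_at (20.9 and 188.6, at least 2.32 higher), 263783_at (557.4 and 1238.2, 1.15), 258975_at (102.9 and 218.3, 1.09) and 267246_at (1071.6 and 2230.5, 1.06). Of these, 266052_at entered the 26 only through the wounded arrays of Ri17, where it is high. On the lower side 260278_at, described as similar to rice WRKY1, read 62.1 and 26.3, at least 0.72 lower with the Ri17 signal under the floor. With both signals above the floor the lowest were 248896_at (419.9 and 285.5, -0.56), 258803_at (405.0 and 300.3, -0.43) and 265718_at (136.4 and 103.8, -0.39). The authors' deposited table calls 14 of the 26 increased and 0 decreased at this time, with no share over all probe sets to set beside it. Its log2 ratio was 3.3 for 245976_at and 2.4 for 251705_at. The strongly wound-induced 261892_at stood at 5984.4 in Col-0 and 8776.1 in Ri17 (0.55), so its genotype difference was small beside its rise of 4.91.

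**Figure D4:**
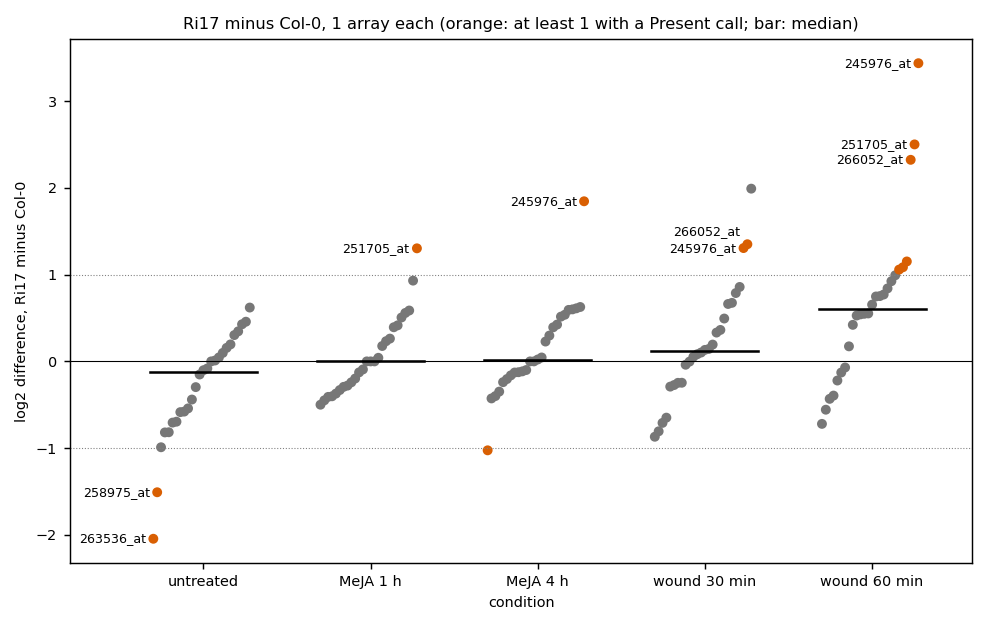
Log2 difference between the Ri17 and the Col-0 array (vertical axis) for the 26 tested WRKY probe sets, sorted within each condition (horizontal axis); orange points reach 1 and were called Present on the brighter array, and black bars are medians. The bar lies at 0.60 at 60 min after wounding and between -0.13 and 0.12 in the other 4 conditions.

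A further 7 probe sets were named as WRKY genes by the annotation table although their descriptions lack the word, and 6 of them were tested, all but *WRKY42*. Of these 6, 3 rose and 1 fell at 30 min after wounding, 2 rose and 2 fell at 60 min, and 4 fell and 0 rose at each time of MeJA. Among all tested probe sets 9.63% rose and 10.5% fell at 30 min after wounding, and 12.1% and 16.1% at 60 min. Under MeJA 15.7% rose and 15.8% fell at 1 h, and 18.8% and 18.7% at 4 h. *WRKY22*, which acts in flagellin signalling, read 150.7 untreated, 517.6 at 30 min and 228.6 at 60 min in Col-0 and 90.0, 722.3 and 554.2 in Ri17, a rise of 2.39 ± 0.44 at 30 min that was lost without the untreated Ri17 array (1.80) or either array at that time. *WRKY47* fell by 2.71 ± 0.34 at 1 h and at least 3.60 ± 0.34 at 4 h of MeJA, from 590.4 to 84.7 and 40.6 in Col-0 and from 383.1 to 62.0 and 19.3 in Ri17. At 60 min after wounding *WRKY6*, a gene of senescence and phosphate responses, rose by 1.77 ± 0.24 and *WRKY22* by 1.61 ± 0.44. *WRKY20* (-0.83 ± 0.17) and *ZAP1* (-0.58 ± 0.18) fell at that time. In the direct comparison of wounding with MeJA, 3 of the 6 were higher and 0 lower, against 14.2% and 20.3% of all probe sets. Calls that no single left-out array ended were 3 of 4 at 1 h and 2 of 4 at 4 h of MeJA, 0 of 4 at 30 min and 1 of 4 (*WRKY6*) at 60 min after wounding.

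Genes around the WRKY factors came from a list of 22 kinases, partners and targets, of which 9 could be matched to a probe set, mostly MAP kinase cascade members. Under MeJA 0 of the 9 passed in either direction at 1 h or 4 h in limma, with 3 and 2 at an unadjusted p under 0.05. Of all 15382 probe sets 31.5% and 37.5% passed, and 6611 and 7223 had an unadjusted p under 0.05. After wounding 3 rose at 30 min and 2 at 60 min, with 0 lower. Of all probe sets 9.63% and 12.1% rose at these times, and 10.5% and 16.1% fell. *ACS6*, an ethylene synthesis enzyme gene, read 395.6 untreated, 3102.7 at 30 min and 1792.0 at 60 min in Col-0 and 303.5, 2721.1 and 2403.1 in Ri17, rising by 3.07 ± 0.23 and 2.58 ± 0.23. *MPK3*, a wound- and pathogen-activated MAP kinase gene, rose by 1.63 ± 0.30 at 30 min, and *MEKK1*, the kinase gene at the top of a cascade, by 1.19 ± 0.31 at 30 min and 1.44 ± 0.31 at 60 min. The call for *MPK3* was lost without either array at 30 min (1.49 without that of Ri17). For *MEKK1* the 30 min call ended in 7 of the fits that leave out 1 array (0.76 with the untreated Ri17 array dropped), and the 60 min call with that array (1.01) or the Ri17 array at 60 min dropped.

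*ICS1*, whose enzyme makes salicylate precursor, was 3.40 ± 0.58 higher at 60 min after wounding than at 1 h of MeJA, a call lost without the Ri17 MeJA array (3.10, adjusted p = 0.0556). It read 571.5 in Col-0 and 3551.1 in Ri17 at 60 min, against 347.0 and 485.1 untreated, so that the Ri17 array was the higher at both points. *ACS6* (1.93 ± 0.23) and *MPK3* (1.44 ± 0.30) were higher in that comparison as well, the latter without a call when either MeJA array or the Ri17 array at 60 min (1.19) was left out.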

How the data were processed

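RNA from 10 samples was hybridised to ATH1 arrays. Per the submitters' processing notes the authors used GCOS, whose version is not given in the sources used here. The deposited intensity values are linear and scaled to a mean, trimmed by 2% at each end, of 500.1 on every array. The deposited comparison tables also hold a log2 ratio of Ri17 over Col-0, change calls and a change p-value per condition, per the file headers. The intensity of each member was identical between tables.

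Members and lists were chosen with earlier results of these data known. Signals were floored at 37.7, probe sets Present on at least 2 arrays were kept, and log2 values were fitted with limma 3.58.1 (R 4.3.3, lmFit and eBayes, 4 residual degrees of freedom) on all 15382 kept probe sets, two-sided, with Benjamini-Hochberg adjustment at 0.05. The steps were tested on simulated data. Counts and plots used Python 3.11.15, pandas 2.3.3, NumPy 2.4.6 and Matplotlib 3.10.9. Given in full were, per treatment, up to 5 called members in each direction with the same sign in both genotypes, and per condition the 3 highest and 3 lowest genotype differences above the floor; others were named after their values were seen. Tissue markers and partners without an annotated gene were matched by their deposited descriptions. Probe set levels were not ordered against each other, and promoter motifs, sequences and WRKY subgroups were not analysed here. The number of arrays limits the precision.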

Additional observations from a re-analysis of the deposited data

Results flagged for a closer look

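For 6 combinations of probe set and treatment, the difference from the untreated array was at least 0.5 on the log2 scale in each genotype, with opposite signs. The minimum of 0.5 was set after the signals had been seen, the values are differences between single arrays, and the difference between genotypes was not tested. At 1 h of MeJA, 258975_at measured -1.20 in Col-0 and 0.57 in Ri17, and 267028_at measured -0.69 and 0.64. At 30 min after wounding, 266052_at measured -0.55 in Col-0, where the wounded signal was under the floor, and at least 0.95 in Ri17. This probe set was Present only on the wounded Ri17 arrays, where it is high, and entered the test through them. Its untreated signals (55.3 in Col-0 and 49.8 in Ri17) were Absent, so its opposite signs rest on undetected signals. At 60 min, 251705_at measured -1.44 in Col-0 and 0.86 in Ri17, and 258975_at measured -1.36 and 1.23. Probe set 266052_at measured -0.55, again against the floor, and at least 1.92. The untreated arrays enter all of these values, and for 258975_at they read 264.2 in Col-0 and 92.9 in Ri17.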

How the results depend on the processing

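Some counts of called WRKY probe sets moved by more than 1.5 times. With no detection filter, which tests all 35 members and more probe sets in all, there were 5 calls at 1 h of MeJA, 2 between 1 h and 4 h and 0 between 30 min and 60 min after wounding. Fitted on wounded and untreated arrays alone, there were 6 at 30 min and 0 between 30 min and 60 min. With a floor of 16 there was 1 between the wound times. The same floor gave 12 higher and 1 lower at 60 min, within 1.5 times of the reported count. The authors' deposited change calls gave 9 members untreated, 4 and 6 at 1 h and 4 h of MeJA, and 9 and 14 at 30 min and 60 min after wounding. The share of all probe sets with such calls was not counted. Leaving out each array, whether or not the count moved that far, gave 5 to 10 calls at 1 h and 10 to 13 at 4 h of MeJA, 7 to 11 at 30 min and 10 to 12 at 60 min after wounding, 0 to 5 between the MeJA times, 0 to 3 between the wound times, 11 to 17 for wounding against MeJA and 0 to 0 for Ri17 against Col-0. For single probe sets 749 values without an array kept their call and 171 lost it, and 559 and 61 did so under other alternatives. None changed sign. A condition left with 1 array is assumed to vary like the others. No paired analysis was possible because each group has 1 array and the labels carry no replicate numbers, so no block could be added beyond the genotype term, which already compares arrays within a genotype. Numbers in the headers of untreated and wounded arrays coincide with genotype. Counts of W-box motifs were not run.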
